A study of Homo sapiens with 39 samples.

Results

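Metallothioneins are small, cysteine-rich proteins that bind zinc and copper and buffer the free level of these metals in the cell. Their genes are switched on by the zinc-sensing transcription factor MTF1, which binds metal response elements in their promoters, and they are also known targets of glucocorticoid receptor and oxidative stress signals. Healthy prostate epithelium is known for its high zinc content, which is reduced in prostate cancer. The RNA of 7 metallothionein genes, MT1E, MT1F, MT1G, MT1H, MT1M, MT1X and MT2A, is described here. They were taken by symbol from the 63187 genes of the count table, and all 7 were found.

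The cells were C4-2B, a castration-resistant prostate cancer line derived from LNCaP, and the treatments were androgen receptor pathway inhibitors (ARPi), poly(ADP-ribose) polymerase inhibitors (PARPi) or a pair of both. In the first experiment, called the time course here, cells received DMSO or olaparib at 1 or 5 µM and were collected at day 1 or day 5 (18 libraries). In the second, called the panel, cells received for 5 days DMSO, abiraterone acetate at 5 µM, enzalutamide at 20 µM, olaparib at 1 µM, talazoparib at 10 nM, abiraterone acetate with olaparib, or enzalutamide with talazoparib (21 libraries). The combinations held each drug at its single-agent dose. Each of the 13 groups had 3 libraries of 1 cell line, kept in medium with fetal bovine serum. No label says that the replicates came from separate cultures, so the p-values measure the spread between these libraries, which may be technical.

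Libraries held 26932205 to 49833473 counts in the panel and 34214001 to 44893664 in the time course. Of the luminal prostate epithelium markers, the keratins KRT8 and KRT18 had 6411 to 18701 and 5057 to 12235 counts per library, and HOXB13, a prostate lineage gene, had 5559 to 13423. These 3 were chosen for their levels, and luminal genes moved with treatment. KLK2 and TMPRSS2 had log2 fold changes of -2.85 and -2.80 with enzalutamide, 0.39 and 0.73 with olaparib in the panel and 1.05 and 1.71 with olaparib at 5 µM for 5 days, and KRT8 had 0.42 and 1.00 in the latter 2. Other luminal genes went the other way: with abiraterone and enzalutamide ACP3 rose by 1.15 and 1.01 and HOXB13 by 0.19 and 0.20, and with olaparib at 5 µM for 5 days HOXB13 had -0.51. In counts scaled to a common library size (CPM, by TMM), the summed markers of fibroblasts were at 12.02 to 24.27 CPM, of leukocytes at 3.11 to 31.1 and of endothelium at 7.76 to 22.7. KLK3, which encodes prostate-specific antigen and responds to androgen, had log2 fold changes of -1.58 with abiraterone and -2.25 with enzalutamide, and CDKN1A, which rises on DNA damage, had 2.18 with olaparib and 1.98 with talazoparib in the panel (edgeR quasi-likelihood test, adjusted p = 3.8e-15, 3.0e-17, 7.8e-17 and 6.4e-16). Each of these sums was mostly 1 gene that moved with treatment. CD68, a lysosomal gene of the leukocyte list, was at 4.31 to 7.10 CPM in the panel's DMSO libraries, 3.49 to 3.70 with abiraterone, 2.47 to 3.02 with enzalutamide, 14.2 to 15.7 with olaparib and 13.0 to 13.6 with talazoparib, and at 26.9 to 29.6 with olaparib at 5 µM for 5 days against 5.52 to 6.35 in DMSO. COL1A1, a collagen of the fibroblast list, was called higher with abiraterone (0.68), enzalutamide (0.60), olaparib (0.41), talazoparib (0.25) and both combinations (0.86 and 0.83), and in the time course with olaparib at day 1 (0.25 at 1 µM and 0.39 at 5 µM) and with 1 µM at day 5 (0.19). VWF, of the endothelial list, was called higher with abiraterone (0.45), with abiraterone and olaparib (0.46) and with olaparib at day 1 (0.26 at 1 µM and 0.40 at 5 µM), and lower with enzalutamide (-0.35), talazoparib (-0.20) and olaparib at 5 µM for 5 days (-0.38). Of the other markers, CD3E and CD79A had at most 1 and 3 counts, DCN and LUM at most 1 and KDR at most 2, while PDGFRB had 37 to 109, LYZ up to 61, PTPRC up to 47, COL3A1 up to 29 and CDH5 up to 10, and the part of these luminal genes, CD68, COL1A1 and VWF in the results on metallothionein genes was not tested. In bulk RNA, fewer cells with a transcript and less transcript per cell cannot be told apart.

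Of the 7 genes, 3 carried nearly all of the metallothionein RNA. The gene body coordinates below are on GRCh38 from the GENCODE annotation. MT1X (ENSG00000187193, chr16:56682470-56684196, plus strand) held 50.8% of the counts of the 7 genes, with 929 to 2453 counts per library. MT2A (ENSG00000125148, chr16:56608584-56609497, plus strand) held 46.7%, with 595 to 2496 counts. MT1F (ENSG00000198417, chr16:56657731-56660698, plus strand) held 2.49%, with 37 to 144 counts.

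The other 4 genes were at or near 0. MT1G (ENSG00000125144, minus strand) had 28 counts over all 39 libraries, at most 4 in one library, and was at 0 in 20 of them. MT1E (ENSG00000169715) had 3 counts in all, and MT1H (ENSG00000205358) and MT1M (ENSG00000205364) had 2 each, with 36, 37 and 37 of the 39 libraries at 0. A count of 0 allows up to 3 counts, that is 0.0602 to 0.111 CPM in the panel and 0.0668 to 0.0877 CPM in the time course, counting error only. These 4 genes did not pass the filter on low counts in either experiment, and no treatment difference was detectable for them at this depth. Per kilobase of the canonical transcript, the mean level in the panel's DMSO libraries was 129.5 CPM for MT1X, 80.3 CPM for MT2A and 4.12 CPM for MT1F, and in the DMSO libraries of day 5 of the time course it was 118.1, 108.8 and 5.54 CPM.

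The 7 metallothionein genes described here lie in 1 cluster on chromosome 16 and are close copies of each other. The coding sequences of the 3 expressed genes are therefore shown first. They were read from GRCh38 through the coding exons of the GENCODE canonical transcripts, from start to stop codon, 186 bases each. Capitals mark the bases in which MT1X and MT1F differ from MT2A.
MT2A: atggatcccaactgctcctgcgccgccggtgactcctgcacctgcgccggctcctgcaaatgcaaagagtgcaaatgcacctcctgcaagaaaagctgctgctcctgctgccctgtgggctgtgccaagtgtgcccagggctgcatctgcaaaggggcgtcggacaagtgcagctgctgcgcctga
MT1X: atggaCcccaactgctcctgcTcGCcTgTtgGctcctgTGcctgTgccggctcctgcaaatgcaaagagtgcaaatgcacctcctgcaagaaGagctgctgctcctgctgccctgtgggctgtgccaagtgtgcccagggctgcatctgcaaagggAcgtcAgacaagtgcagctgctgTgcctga
MT1F: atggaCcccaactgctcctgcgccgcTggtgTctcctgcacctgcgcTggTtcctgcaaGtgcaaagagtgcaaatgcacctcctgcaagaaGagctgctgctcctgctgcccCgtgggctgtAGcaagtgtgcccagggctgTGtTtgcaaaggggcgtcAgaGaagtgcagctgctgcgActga
MT1X differed from MT2A at 14 bases (92.5% identity), MT1F from MT2A at 16 (91.4%) and MT1F from MT1X at 21 (88.7%). Of all windows of 31 bases in the canonical transcript, 24.8% of those of MT2A, 23.0% of those of MT1X and 13.9% of those of MT1F also occurred in a transcript of another metallothionein gene or pseudogene. With windows of 75 bases the shares were 0% for MT2A, 8.18% for MT1X and 0% for MT1F, and MT1X shared no such window with MT2A or MT1F. Salmon assigned shared reads between these genes, so the split between single genes is uncertain to a degree that was not measured, and the level summed over the 7 genes is given beside the single genes.

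All 7 promoters held the letters of the metal response element core. The 250 bases before the RefSeq transcription start were searched on both strands for TGCACNC and TGCGCNC, in which N is any base. MT1H had 8 matches, MT2A 7, MT1F 6, MT1G 5, MT1X 4, and MT1E and MT1M 3 each. Of 35116 RefSeq promoter windows of the same length, 24.8% held at least 1 match, 1.58% at least 3, 0.37% at least 4 and 0.0313% at least 7. The promoters of the 2 genes with the most RNA are printed beside that of MT1H, which had more matches and only 2 counts, because they show that the number of matches did not follow the RNA level. They are read 5′ to 3′ from GRCh38 and are identical to the RefSeq table of that build, and capitals mark the matches on either strand.
MT2A, chr16:56608334-56608583, plus strand: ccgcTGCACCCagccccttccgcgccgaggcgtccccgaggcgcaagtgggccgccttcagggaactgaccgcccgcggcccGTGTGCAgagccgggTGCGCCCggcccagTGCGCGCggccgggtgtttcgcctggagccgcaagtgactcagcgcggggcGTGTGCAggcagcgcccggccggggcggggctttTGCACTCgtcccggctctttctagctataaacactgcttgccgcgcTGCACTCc
MT1X, chr16:56682220-56682469, plus strand: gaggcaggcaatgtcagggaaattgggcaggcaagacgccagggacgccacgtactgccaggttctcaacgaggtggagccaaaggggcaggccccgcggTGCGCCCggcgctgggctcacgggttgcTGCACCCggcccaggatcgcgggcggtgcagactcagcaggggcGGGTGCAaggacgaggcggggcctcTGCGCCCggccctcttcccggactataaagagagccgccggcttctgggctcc
MT1H, chr16:56669564-56669813, plus strand: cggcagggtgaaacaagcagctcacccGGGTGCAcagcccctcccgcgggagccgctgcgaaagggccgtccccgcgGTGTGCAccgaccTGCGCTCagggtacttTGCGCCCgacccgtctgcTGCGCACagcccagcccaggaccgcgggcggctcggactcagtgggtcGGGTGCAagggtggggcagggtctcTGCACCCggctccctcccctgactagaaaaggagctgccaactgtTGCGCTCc
A match on the strand of the gene between 54 and 46 bases before the start was found in 6 genes, MT1F being the exception with a match on the opposite strand at 49 to 43 bases. A match on the opposite strand at 78 to 71 bases before the start was shared by MT1E, MT1G, MT1H, MT1M and MT1X. In MT1F, part of the window overlaps an exon of a non-coding GENCODE transcript that starts further upstream, and the whole window of MT1E lies in the first exon of a GENCODE transcript of MT1E. A match of letters is not a binding site, and neither MTF1 binding nor DNA methylation was measured.

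**Figure D1:**
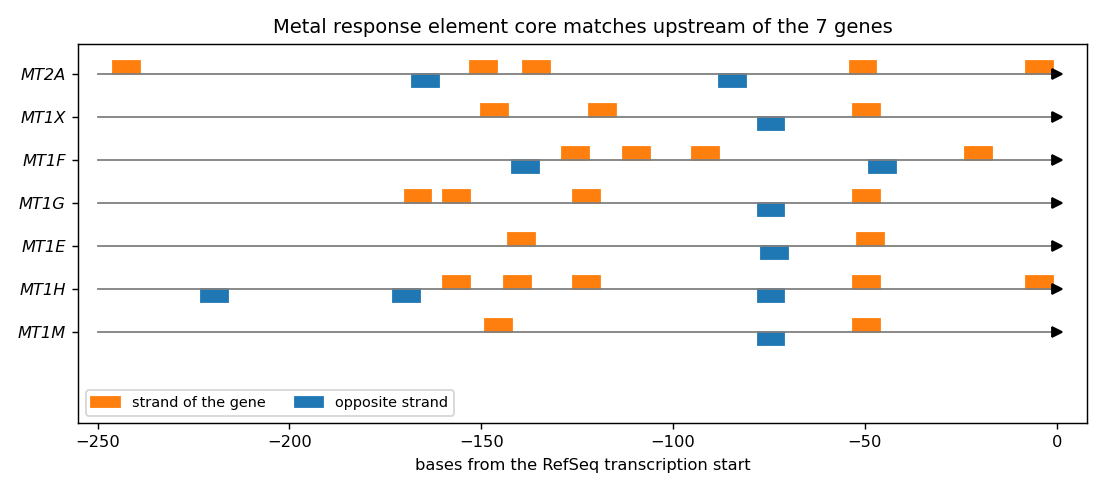
Positions of the metal response element core matches in the 250 bases before the RefSeq start of each gene (x axis, bases from the start, arrowhead at the start), above the line for the strand of the gene and below it for the opposite strand. The upper 3 genes are those with measurable RNA, with 7, 4 and 6 matches, and the lower 4, at or near 0 counts, have 3 to 8.

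The first question of the panel was what each single agent does after 5 days. Both ARPi raised all 3 expressed metallothionein genes, and both PARPi lowered MT2A and MT1X. MT2A, the main inducible metallothionein of most human tissues, was at 30.8, 29.9 and 35.9 CPM in the DMSO libraries. It was at 48.4, 51.6 and 50.6 CPM with abiraterone and at 63.5, 58.9 and 58.5 CPM with enzalutamide. Every ARPi library was above every DMSO library, and every enzalutamide library was above every abiraterone library, at doses that differ. The fold over DMSO was 1.55 with abiraterone (log2 fold change 0.63 ± 0.058, SE) and 1.86 with enzalutamide (0.90 ± 0.057), with adjusted p of 7.4e-11 and 1.4e-14 (edgeR quasi-likelihood test, n = 3 per group).

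With the PARPi, MT2A was at 22.2, 21.7 and 25.6 CPM under olaparib and at 21.6, 20.6 and 23.0 CPM under talazoparib. All 6 libraries were below the 3 DMSO libraries, and the libraries of the 2 PARPi overlapped each other. The log2 fold change was -0.48 ± 0.062 for olaparib and -0.57 ± 0.062 for talazoparib (edgeR, adjusted p = 2.2e-07 and 1.1e-08). The means were 71.9% and 67.5% of the DMSO mean.

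MT1X moved in the same directions with a different balance. In DMSO it was at 53.1, 52.6 and 51.3 CPM, and with abiraterone at 57.6, 58.9 and 56.1 and with enzalutamide at 57.9, 57.9 and 56.4 CPM. These increases were small, 1.10-fold in both (log2 fold change 0.14 ± 0.040 and 0.13 ± 0.039, edgeR adjusted p = 0.0038 and 0.0043), but the libraries did not overlap with DMSO. Under olaparib MT1X was at 40.4, 37.6 and 42.8 CPM and under talazoparib at 42.3, 41.5 and 42.2 CPM. All of these libraries were below DMSO, with log2 fold changes of -0.38 ± 0.041 and -0.32 ± 0.040 (edgeR, adjusted p = 2.6e-09 and 8.5e-08).

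MT1F was at 1.70, 1.80 and 1.75 CPM in DMSO, at 2.21, 2.57 and 2.71 with abiraterone and at 2.50, 2.59 and 2.75 CPM with enzalutamide. It rose to 142.7% and 149.5% of the DMSO mean (log2 fold change 0.51 ± 0.18 and 0.58 ± 0.18, edgeR adjusted p = 0.016 and 0.0060). The abiraterone call was lost without abiraterone replicate C (adjusted p = 0.064). With olaparib MT1F was at 1.16, 1.38 and 1.58 CPM and with talazoparib at 1.35, 1.24 and 1.36 CPM, all below DMSO. These libraries held 44 to 64 counts of MT1F, and those of DMSO 50 to 69. The differences did not pass the threshold, and their 95% intervals were -0.73 to 0.026 and -0.79 to -0.03 on the log2 scale (edgeR, adjusted p = 0.15 and 0.087).

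**Figure D2:**
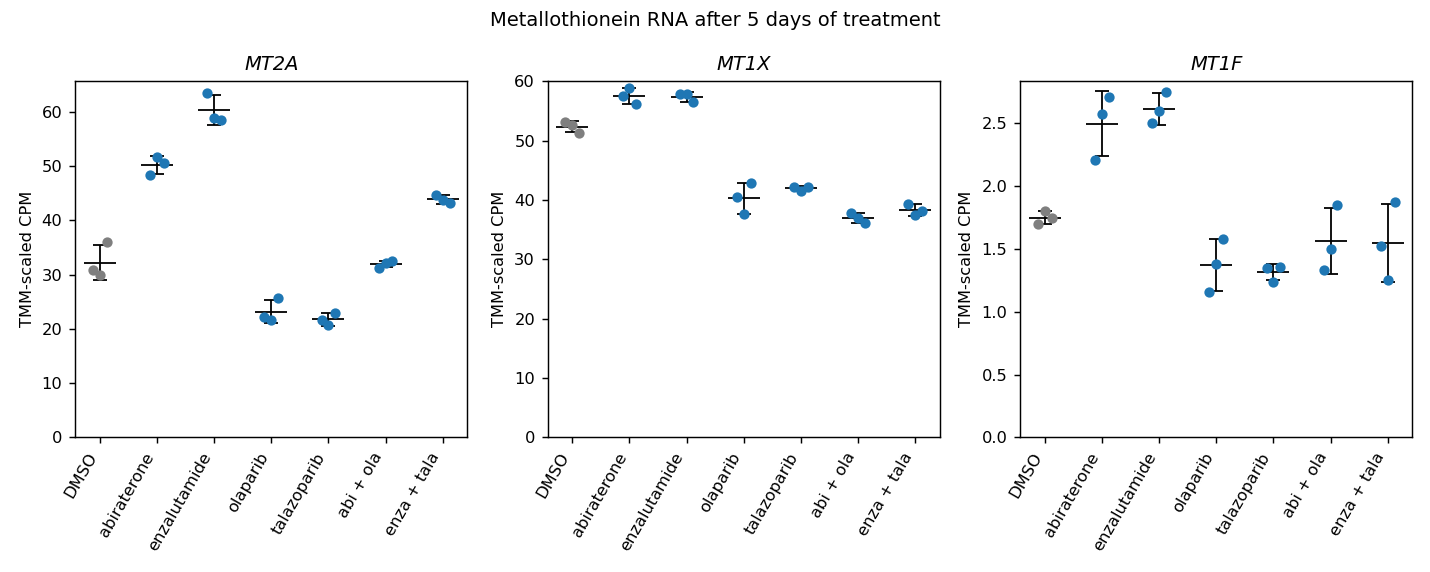
Level of MT2A, MT1X and MT1F in TMM-scaled CPM (y axes, starting at 0) in each library of the 7 panel groups. Points are libraries, bars the mean ± SD of 3 libraries, and DMSO is gray. MT2A spans 20.6 to 63.5 CPM over the panel, MT1X 36.1 to 58.9 and MT1F 1.16 to 2.75.

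A large share of all genes changed in these comparisons, and the metallothionein counts are to be read against it. Of the 18625 genes tested, abiraterone raised 25.8% and lowered 27.1%, and enzalutamide raised 27.0% and lowered 26.3%. Each raised 3 of the 3 metallothionein genes tested. Olaparib raised 19.6% and lowered 16.0%, and talazoparib raised 18.4% and lowered 15.4%. Each lowered 2 of the 3 metallothionein genes. The median log2 fold change of the 3 genes was 0.51 for abiraterone, 0.58 for enzalutamide, -0.38 under olaparib and -0.41 under talazoparib, beside medians over all genes tested of 0.00030, 0.017, 0.015 and 0.020. Counts of 2 or 3 genes cannot be called particular to the family.

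Next, each combination was compared with DMSO and with its single agents, to ask whether 1 drug class changes the response to the other. In the combinations, MT2A and MT1X parted: MT2A lay between the levels of the single agents, while the means of MT1X were the lowest of the panel, with libraries that overlapped with olaparib alone. With abiraterone and olaparib, MT2A was at 31.2, 32.2 and 32.4 CPM. This range lay within that of DMSO, and the log2 fold change of -0.02 had a 95% interval of -0.14 to 0.11 (edgeR, adjusted p = 0.83). Its sign turned without DMSO replicate C (0.072) and with total-count scaling (0.025). With enzalutamide and talazoparib, MT2A was at 44.7, 43.8 and 43.1 CPM, above all DMSO libraries and below all enzalutamide libraries. Its log2 fold change against DMSO was 0.44 ± 0.057 (edgeR, adjusted p = 7.1e-08).

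MT1X was at 37.7, 37.0 and 36.1 CPM with abiraterone and olaparib and at 39.3, 37.5 and 38.2 CPM with enzalutamide and talazoparib. Both combinations were below DMSO in every library, with log2 fold changes of -0.50 ± 0.042 and -0.45 ± 0.040 (edgeR, adjusted p = 8.4e-13 and 7.1e-12). MT1F was at 1.335, 1.496 and 1.848 CPM and at 1.52, 1.25 and 1.87 CPM, and overlapped with DMSO in both. Its log2 fold changes of -0.17 ± 0.19 and -0.18 ± 0.18 were not called (edgeR, adjusted p = 0.44 and 0.39). Against DMSO, 31.1% of all genes tested were higher and 31.1% lower with abiraterone and olaparib, where 1 of the 3 metallothionein genes was lower and none higher. With enzalutamide and talazoparib 31.3% of the genes tested were lower and 31.2% higher, and so were 1 and 1 of the 3 genes.

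Adding a PARPi to an ARPi lowered all 3 genes. Against abiraterone alone, the combination with olaparib had log2 fold changes of -0.65 ± 0.058 for MT2A, -0.64 ± 0.041 for MT1X and -0.68 ± 0.18 for MT1F (edgeR, adjusted p = 3.4e-10, 2.6e-14 and 0.0041). Against enzalutamide alone, the combination with talazoparib had -0.46 ± 0.054, -0.58 ± 0.040 and -0.77 ± 0.18 (edgeR, adjusted p = 6.6e-08, 6.9e-14 and 0.00083). MT1F was thus at 0.623 and 0.588 times its level under the ARPi alone. Of all genes tested, 14.7% and 17.9% were lower in these comparisons and 14.4% and 16.5% higher.

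Adding an ARPi to a PARPi raised MT2A and did not raise MT1X. MT2A was 1.38-fold higher with abiraterone and olaparib than with olaparib alone (0.46 ± 0.063 log2) and 2.02-fold higher with enzalutamide and talazoparib than with talazoparib alone (1.01 ± 0.059), with edgeR adjusted p of 1.6e-07 and 1.5e-15. MT1X was lower in these comparisons by 0.12 ± 0.042 and 0.13 ± 0.041 on the log2 scale (edgeR, adjusted p = 0.012 and 0.0061). These 2 calls of MT1X were not stable. With total-count scaling the log2 changes were -0.041 and -0.049 (adjusted p = 0.42 and 0.30). The calls were also lost without olaparib replicate A or C (adjusted p = 0.064 and 0.24), and without replicate B or C of enzalutamide and talazoparib or talazoparib replicate A or C (adjusted p = 0.053 to 0.089). MT1F was not called in either, with 95% intervals of -0.20 to 0.57 and -0.15 to 0.60. Of all genes tested, 27.3% and 29.1% were higher and 29.3% and 29.7% lower.

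On the log scale, MT1X was below the sum of its single-agent changes in both combinations. The departure was -0.26 ± 0.058 in the pair with olaparib and -0.26 ± 0.056 in the pair with talazoparib (edgeR interaction contrasts, adjusted p = 0.0020 and 0.0014), where 8.08% and 7.28% of all genes tested departed downwards and 4.74% and 5.32% upwards. For MT2A the departures were -0.17 (95% interval -0.34 to 0.0046) and 0.11 (-0.05 to 0.28), with adjusted p of 0.21 and 0.42 by edgeR. The first was called when DMSO replicate C was left out (-0.26, adjusted p = 0.025). MT1F had departures of -0.33 ± 0.26 and -0.35 ± 0.26, neither called (edgeR, adjusted p = 0.47 and 0.42).

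**Figure D3:**
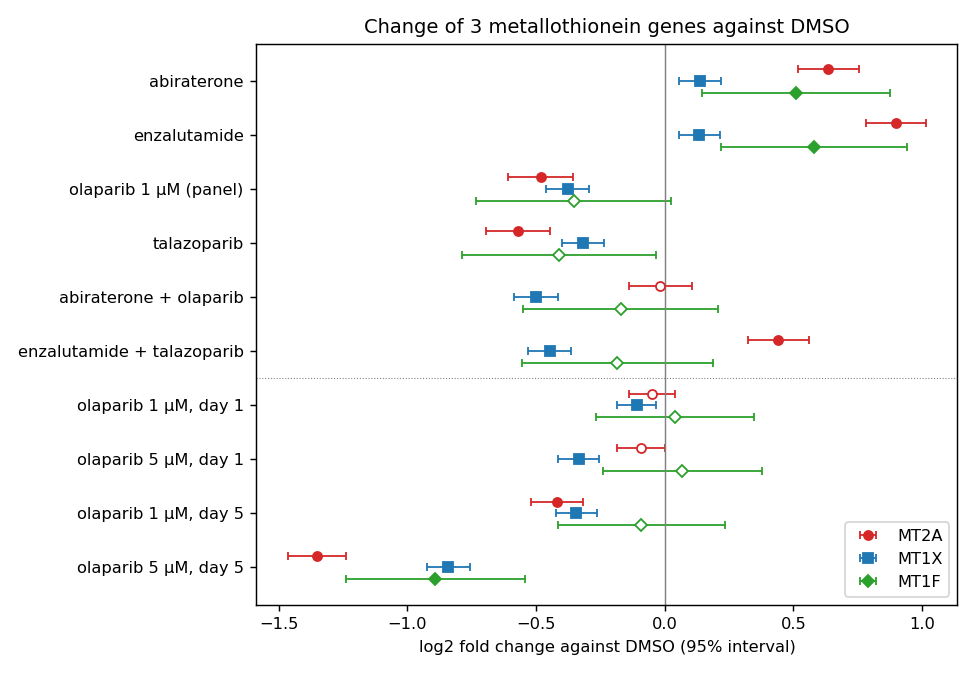
Log2 fold change against DMSO of the same experiment and day (x axis, with 95% intervals) for MT2A, MT1X and MT1F in 10 comparisons, with a dotted line between the panel and the time course. Filled symbols passed an adjusted p of 0.05. MT2A ranges from -1.35 with olaparib at 5 µM for 5 days to 0.90 with enzalutamide, and MT1X from -0.84 to 0.14.

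The balance of the 2 abundant genes differed between treatments. In the panel, MT2A had 0.580, 0.568 and 0.701 counts per MT1X count in DMSO, 0.840, 0.876 and 0.901 with abiraterone, and 1.10, 1.02 and 1.04 with enzalutamide. With abiraterone and olaparib the ratio was 0.827, 0.870 and 0.899, overlapping with abiraterone alone. With enzalutamide and talazoparib it was 1.14, 1.17 and 1.13, above each library of enzalutamide alone. Under the PARPi alone it was 0.548 to 0.598 for olaparib and 0.498 to 0.544 for talazoparib. In the time course, olaparib at 5 µM moved the ratio in opposite directions on the 2 days. At day 1 it was 1.34 to 1.39 against 1.15 to 1.17 in DMSO, and at day 5 it was 0.625 to 0.667 against 0.872 to 0.948, with no overlap on either day. The ratio is a description and was not tested.

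**Figure D4:**
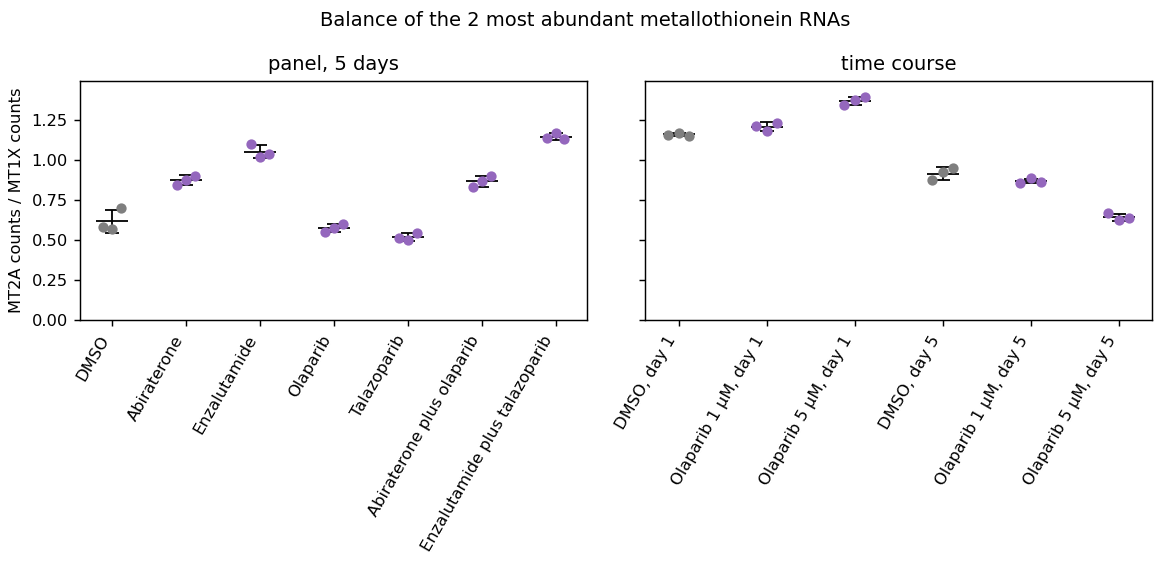
MT2A counts divided by MT1X counts in each library of the panel (left) and the time course (right). Points are libraries and bars the mean ± SD of 3 libraries. In the panel the mean is 0.616 in DMSO and 1.14 with enzalutamide and talazoparib, and in the time course it is 1.16 in DMSO and 1.37 with olaparib at 5 µM at day 1, and 0.914 and 0.642 at day 5.

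Ordered by mean level in the panel, MT2A ran from enzalutamide (60.3 ± 2.78 CPM, SD) over abiraterone (50.2 ± 1.66), enzalutamide with talazoparib (43.8 ± 0.80), DMSO (32.2 ± 3.26), abiraterone with olaparib (31.9 ± 0.64) and olaparib (23.2 ± 2.13) to talazoparib (21.7 ± 1.16). DMSO and abiraterone with olaparib overlapped, as did olaparib and talazoparib. MT1X ran from abiraterone (57.5 ± 1.38 CPM) and enzalutamide (57.4 ± 0.82), which overlapped, over DMSO (52.3 ± 0.93) to talazoparib (41.98 ± 0.45), olaparib (40.3 ± 2.61), enzalutamide with talazoparib (38.3 ± 0.95) and abiraterone with olaparib (36.9 ± 0.82). Each of these last 4 overlapped with its neighbor. Summed over the 7 genes, the level was 86.3 ± 2.36 CPM in DMSO, 110.2 ± 2.55 with abiraterone, 120.3 ± 3.20 with enzalutamide, 64.8 ± 4.73 under olaparib and 65.0 ± 1.59 under talazoparib. With abiraterone and olaparib it was 70.4 ± 0.18 CPM, below every DMSO library, and with enzalutamide and talazoparib 83.7 ± 1.61 CPM, overlapping with DMSO.

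The time course asked how the olaparib response depends on dose and duration. At day 1 MT1X passed the test at both doses, and at day 5 MT2A and MT1X fell more and further at the higher dose. At day 1, MT2A was at 53.8, 55.7 and 53.8 CPM in DMSO, at 51.8, 52.0 and 54.1 with olaparib at 1 µM and at 49.2, 48.5 and 55.6 with 5 µM. These ranges overlapped, and the log2 fold changes were -0.05 ± 0.044 and -0.09 ± 0.045 (edgeR, adjusted p = 0.53 and 0.096). The second was called without replicate 3 of the 5 µM group (-0.16, adjusted p = 0.0020), with a replicate block (-0.0943, adjusted p = 0.037) and with no filter on low counts (-0.085, adjusted p = 0.044). MT1X was at 46.5, 47.8 and 46.8 CPM in DMSO, at 42.8, 44.1 and 43.9 with 1 µM and at 36.6, 35.3 and 39.96 with 5 µM. The 3 groups did not overlap, and the log2 fold changes were -0.11 ± 0.038 and -0.33 ± 0.039 (edgeR, adjusted p = 0.044 and 4.5e-09). The call at 1 µM was lost without any 1 of the 6 libraries compared, with adjusted p between 0.067 and 0.15.

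MT1F at day 1 was at 3.38, 2.81 and 2.68 CPM in DMSO, at 2.69, 2.89 and 3.50 with 1 µM and at 3.10, 2.80 and 3.37 with 5 µM. These ranges overlapped, and the 95% intervals of the log2 fold changes were -0.27 to 0.35 and -0.24 to 0.38. In these comparisons 9.52% of the 18502 genes tested were lower and 6.30% higher at 1 µM, and 23.4% lower and 21.6% higher at 5 µM, against 1 of 3 metallothionein genes lower at each dose.

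At day 5, MT2A was at 41.0, 42.9 and 47.0 CPM in DMSO, at 32.6, 31.5 and 33.7 with olaparib at 1 µM and at 17.4, 16.7 and 17.2 with 5 µM. The 3 groups were fully separate. The log2 fold change was -0.42 ± 0.049 at 1 µM and -1.35 ± 0.055 at 5 µM (edgeR, adjusted p = 7.4e-08 and 1.3e-17), which put the means at 74.7% and 39.2% of DMSO. MT1X was at 47.0, 46.5 and 49.6 CPM in DMSO, at 38.1, 35.7 and 39.1 with 1 µM and at 26.0, 26.7 and 27.2 with 5 µM. Its log2 fold changes were -0.34 ± 0.039 and -0.84 ± 0.041 (edgeR, adjusted p = 1.9e-09 and 4.8e-20).

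MT1F at day 5 was at 2.67, 2.00 and 2.39 CPM in DMSO and at 2.06, 2.33 and 2.26 with 1 µM, which overlapped (95% interval of the log2 fold change -0.41 to 0.23). With 5 µM it was at 1.71, 1.07 and 1.04 CPM, below every DMSO library, with a log2 fold change of -0.89 ± 0.17 (edgeR, adjusted p = 2.0e-05). At 5 µM, 33.9% of the genes tested were lower and 34.4% higher, against 3 of 3 metallothionein genes lower, and at 1 µM 22.9% were lower and 23.4% higher, against 2 of 3. The summed level of the 7 genes was 93.8 ± 4.53 CPM in DMSO, 72.5 ± 2.80 with 1 µM and 45.03 ± 0.51 with 5 µM.

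**Figure D5:**
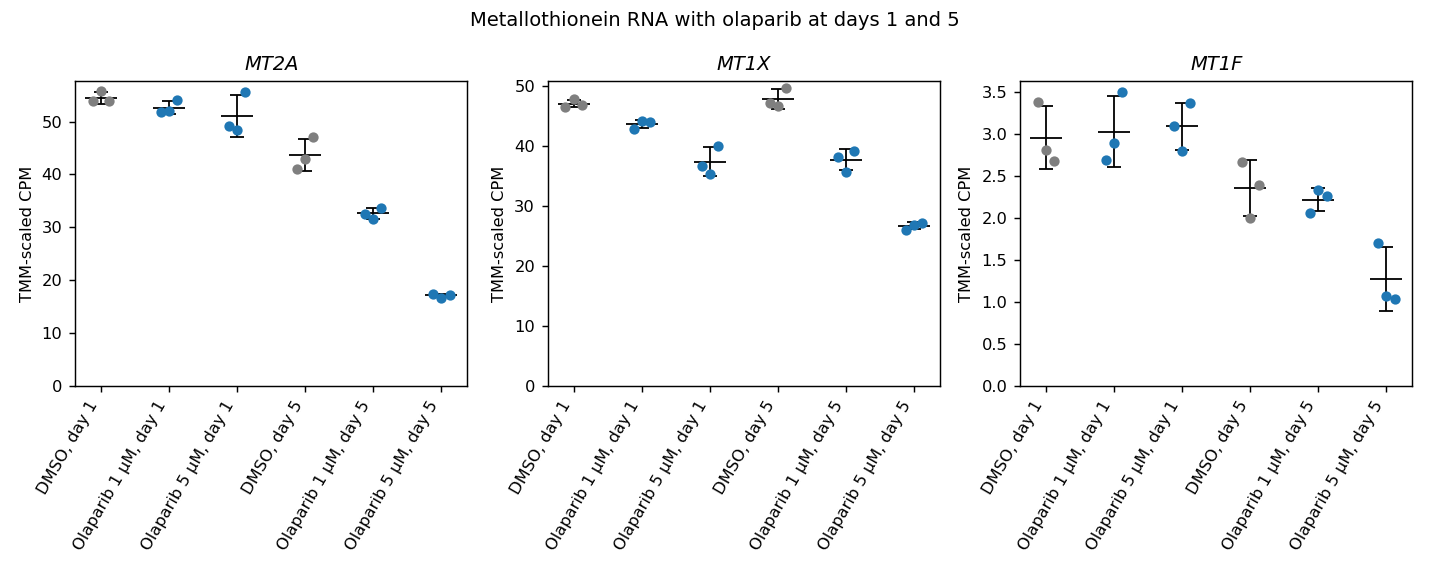
Level of MT2A, MT1X and MT1F in TMM-scaled CPM (y axes, starting at 0) in each library of the time course. Points are libraries, bars the mean ± SD of 3 libraries, and DMSO is gray. At day 5, MT2A falls from a mean of 43.6 CPM in DMSO to 32.6 at 1 µM and 17.1 at 5 µM, and MT1X from 47.7 to 37.6 and 26.6.

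The dose step from 1 to 5 µM lowered all 3 genes at day 5, by 0.93 ± 0.058 for MT2A, 0.50 ± 0.043 for MT1X and 0.80 ± 0.17 for MT1F on the log2 scale (edgeR, adjusted p = 2.9e-13, 1.5e-12 and 0.00017). At day 1 it lowered MT1X by 0.23 ± 0.039 (edgeR, adjusted p = 1.9e-05), while MT2A changed by -0.04 with a 95% interval of -0.14 to 0.05. The MT2A change was called without replicate 3 of the 5 µM group (-0.11, edgeR adjusted p = 0.049). Of all genes tested, 27.0% were lower and 26.6% higher with the dose step at day 5, and 15.9% lower and 12.8% higher at day 1. The olaparib effect at day 5 differed from that at day 1 for MT2A and MT1X at both doses. The difference was -0.37 ± 0.066 for MT2A and -0.23 ± 0.054 for MT1X at 1 µM, and -1.26 ± 0.071, -0.51 ± 0.057 and, for MT1F, -0.96 ± 0.23 at 5 µM (edgeR interaction contrasts, adjusted p = 8.9e-05, 0.00081, 4.5e-14, 1.1e-09 and 0.00052). The share of all genes tested with a downward difference was 14.2% at 1 µM and 27.7% at 5 µM, and with an upward one 15.6% and 27.2%.

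MT2A also changed with time in DMSO alone. Its mean fell from 54.4 ± 1.10 CPM at day 1 to 43.6 ± 3.04 at day 5, a log2 change of -0.32 ± 0.045 (edgeR, adjusted p = 6.9e-06), in a comparison where 13.4% of the genes tested were lower and 11.1% higher. MT1X was at 47.0 ± 0.66 and 47.7 ± 1.63 CPM, with a 95% interval of the log2 change of -0.05 to 0.10. MT1F was at 2.96 ± 0.37 and 2.35 ± 0.33 CPM, a log2 change of -0.32 ± 0.15 that was not called (edgeR, adjusted p = 0.14).

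Olaparib at 1 µM for 5 days was part of both experiments, each with its own DMSO libraries. The log2 fold change was -0.48 in the panel and -0.42 in the time course for MT2A, -0.38 and -0.34 for MT1X and -0.35 and -0.09 for MT1F. In a fit of both, the differences between the experiments were -0.08 ± 0.11, -0.05 ± 0.063 and -0.28 ± 0.24, and none of the 3 was called (edgeR, adjusted p = 0.81, 0.77 and 0.65, with 0 of 3 at an unadjusted p under 0.05). Their 95% intervals were -0.33 to 0.16, -0.18 to 0.08 and -0.77 to 0.21. Of the 17833 genes tested for this difference, 1.97% were called.

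The rest of the family added almost nothing. Of 15 further IDs of metallothionein genes and pseudogenes in the table, 10 had no count in any library. MT1JP was listed under more than 1 of these IDs. MT3, the form best known from brain, was the exception, with up to 15 counts per library. It had 1, 3 and 1 counts in the panel's DMSO libraries, 9, 13 and 14 with enzalutamide and 8, 15 and 6 with enzalutamide and talazoparib. With abiraterone it had 2, 2 and 1 counts. In the time course no library exceeded 6 counts. MT3 passed the filter on low counts in the panel only, where its enzalutamide groups are high, so no test of it is given.

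The RNA of MTF1, the factor that senses zinc and acts on these promoters, did not follow the metallothionein levels. It was at 41.7 to 50.1 CPM in the panel's DMSO libraries and fell with enzalutamide to 37.6 to 38.5 CPM (-0.27 ± 0.050 log2, edgeR adjusted p = 1.7e-05), where MT2A rose. With olaparib at 5 µM for 5 days MTF1 rose from 46.8 to 51.0 CPM in DMSO to 58.7 to 62.4 CPM (0.33 ± 0.034, adjusted p = 6.1e-11), where MT2A fell. With abiraterone, olaparib and talazoparib in the panel it was not called (edgeR, adjusted p = 0.081, 0.15 and 0.96). MTF1 protein and its activity were not measured, and the part of MTF1 in the metallothionein changes was not tested.

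The zinc exporter SLC30A1, itself a known MTF1 target, was measured beside them. It was at 33.8, 37.2 and 39.6 CPM in the panel's DMSO libraries, at 49.5, 47.0 and 49.5 with abiraterone, at 37.1, 36.1 and 35.3 with enzalutamide and at 46.7, 47.7 and 48.5 with olaparib. It rose with abiraterone (0.40 ± 0.046 log2), olaparib (0.37 ± 0.046) and talazoparib (0.19 ± 0.046), and was not called with enzalutamide (-0.03 ± 0.047), by edgeR with adjusted p of 4.4e-09, 6.2e-08, 0.0015 and 0.58. With olaparib at 5 µM for 5 days SLC30A1 rose by 0.65 ± 0.043 (adjusted p = 3.8e-13). Under the PARPi, SLC30A1 thus rose where MT2A and MT1X fell.

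Of the 10 zinc exporters of the SLC30 family, 9 were tested in each experiment. Abiraterone raised 3 and lowered 4, enzalutamide 2 and 4, olaparib 3 and 2 and talazoparib 3 and 1. With each combination 4 rose and 5 fell. In the time course 0 were called at 1 µM at day 1 (edgeR, 2 at an unadjusted p under 0.05), and 4 rose and 3 fell in each of the other 3 groups. SLC30A4, which moves zinc into intracellular vesicles, rose with all 4 single agents of the panel, by 0.40 ± 0.026, 0.48 ± 0.026, 0.29 ± 0.026 and 0.29 ± 0.026. These shares are to be read against those of all genes tested, which were 25.8% higher and 27.1% lower with abiraterone, 27.0% and 26.3% with enzalutamide, 19.6% and 16.0% with olaparib, 18.4% and 15.4% with talazoparib, and 31.1% to 31.3% each way with the combinations. In the time course they were 6.30% and 9.52% at 1 µM and 21.6% and 23.4% at 5 µM at day 1, and 23.4% and 22.9% at 1 µM and 34.4% and 33.9% at 5 µM at day 5. SLC30A3, best known from synaptic vesicles, had 8, 13 and 16 counts in DMSO and 98, 142 and 132 with enzalutamide. It could be named only because of the group where it is high, so no test of it is given.

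Of the 14 zinc importers of the SLC39 family, 12 were tested. With abiraterone and with enzalutamide 2 rose and 8 fell, with olaparib 3 rose and 3 fell and with talazoparib 2 and 3, and with each combination 2 rose and 9 fell. At day 5 of the time course 3 rose and 4 fell at 1 µM and 4 rose and 7 fell at 5 µM, and at day 1 none rose and 5 fell at 1 µM and 2 rose and 7 fell at 5 µM. The shares over all genes tested are those given for the exporters. The median log2 fold change over the 12 was -0.30 with abiraterone, -0.26 with enzalutamide, 0.03 under olaparib and -0.11 under olaparib at 5 µM for 5 days.

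SLC39A8 is a zinc importer of the plasma membrane, and its values in the combinations are not given here. It rose with abiraterone (0.67 ± 0.036) and enzalutamide (0.46 ± 0.036) and fell with olaparib (-0.59 ± 0.037), talazoparib (-0.50 ± 0.037) and olaparib at 5 µM for 5 days (-1.15 ± 0.027), in the directions of MT2A. It also fell at day 1, by 0.16 ± 0.026 at 1 µM and by 0.34 ± 0.026 at 5 µM, where MT2A was not called. SLC39A14, also a plasma membrane importer, fell with abiraterone, enzalutamide, olaparib, talazoparib and olaparib at 5 µM for 5 days, by 0.21 to 0.57 on the log2 scale, with -0.53 ± 0.032 for abiraterone and -0.57 ± 0.023 for olaparib at 5 µM for 5 days. SLC39A7, which releases zinc from the endoplasmic reticulum, fell with abiraterone (-0.51 ± 0.026) and enzalutamide (-0.47 ± 0.026). SLC39A10 fell with abiraterone by 0.50 ± 0.059 and rose with olaparib by 0.25 ± 0.055 and with talazoparib by 0.33 ± 0.054.

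Lists of copper-handling, glucocorticoid response and oxidative stress genes were also counted. The shares over all genes tested were 25.8% to 27.1% each way with the ARPi and 15.4% to 19.6% with the PARPi of the panel. With olaparib at 5 µM for 5 days they were 33.9% to 34.4%, and the counts are given beside these shares. Of 12 copper-handling genes, all tested, 3 rose and 5 fell with abiraterone, 3 and 6 with enzalutamide, 5 and 2 with olaparib, 4 and 1 with talazoparib and 6 and 4 with olaparib at 5 µM for 5 days. The copper chaperone ATOX1 rose with all 4 single agents, by 0.48 ± 0.055, 0.37 ± 0.055, 0.39 ± 0.055 and 0.39 ± 0.054. Of 10 glucocorticoid response genes, 9 were tested, and 3 rose and 6 fell with abiraterone, 2 and 6 with enzalutamide, 5 and 0 with olaparib, 6 and 1 with talazoparib and 7 and 2 with olaparib at 5 µM for 5 days. FKBP5, which also responds to androgen, fell by 2.69 ± 0.028 with abiraterone and by 2.81 ± 0.028 with enzalutamide and rose by 0.40 ± 0.025 with olaparib. Of 9 oxidative stress genes, all tested, 2 rose and 5 fell with abiraterone, 4 and 3 with enzalutamide, 1 and 4 with each PARPi of the panel and 2 and 5 with olaparib at 5 µM for 5 days. SLC7A11, the cystine importer that supplies cysteine, fell by 1.64 ± 0.071 with olaparib. With olaparib at 5 µM for 5 days it fell by 1.89 ± 0.043. It also fell with abiraterone (-0.97 ± 0.068), where MT2A rose. With abiraterone and olaparib it had -2.15 ± 0.074, and with enzalutamide and talazoparib -1.42 ± 0.069. HMOX1, a heme-degrading stress gene, rose by 1.44 ± 0.064 with olaparib at 5 µM for 5 days. HMOX1 also rose with abiraterone (0.32 ± 0.082) and enzalutamide (0.38 ± 0.081), and with their combinations (0.42 ± 0.082 and 0.30 ± 0.081).

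Across the libraries, the 3 genes varied together to different degrees. Pearson's r of log2 CPM over the 21 panel libraries was 0.60 between MT2A and MT1X, 0.83 between MT2A and MT1F and 0.80 between MT1X and MT1F, and over the 18 time course libraries it was 0.88, 0.92 and 0.74. The points share the treatment groups, so these are descriptions. Among 12403 genes with a mean of at least 100 counts, the 5 outside the family most like MT1X over the panel were DLGAP5 (r = 0.945), HNRNPR (0.942), ANLN (0.941), HJURP (0.940) and SMC4 (0.939), and in the time course their r with MT1X was 0.962, 0.971, 0.960, 0.960 and 0.958. These 5 were chosen as the highest in the panel, so their r there is a description.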

How the data were processed

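RNA was measured by stranded, paired-end mRNA sequencing in 39 libraries of C4-2B cells. The authors trimmed reads with Trim Galore, aligned them to GRCh38 with STAR and quantified genes with Salmon on GENCODE, within a published pipeline. The deposited values are estimated counts per gene, written as whole numbers and not normalized. Symbols came from an earlier GENCODE release for 62666 of 63187 gene IDs, and the 521 unmatched IDs held 0.12% of all counts.

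CPM, log2 fold changes and their errors were obtained from these counts in R 4.3.3, using edgeR 4.0.16 with TMM scaling (filterByExpr by group, robust quasi-likelihood test, Benjamini-Hochberg adjustment over all genes tested, threshold 0.05). One fit held all 21 panel libraries and one all 18 time course libraries, without covariates. A fit of 12 libraries compared olaparib between experiments. Replicates differed by more than sampling noise (chi-square per degree of freedom 2.18 to 6.03), so each counted once. Scripts were tested on simulated data. DESeq2 1.42.0, other scalings, other filters, a replicate block and leaving out each library were alternatives.

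All 7 metallothionein genes were named. Of the other lists, up to 3 genes per list and comparison with the largest change among those called whose mean reached 100 counts in whichever group was higher could be named, beside MTF1 and MT3. The values of SLC30A1, SLC30A4, SLC39A7, SLC39A8, SLC39A10, SLC39A14, ATOX1, FKBP5, SLC7A11 and HMOX1 in further comparisons are given because each was named in one. KRT8, KRT18, HOXB13, ACP3, KLK2, TMPRSS2, CD68, CD3E, CD79A, LYZ, PTPRC, COL1A1, COL3A1, PDGFRB, DCN, LUM, VWF, CDH5 and KDR were chosen from the marker lists after their values were seen. The members and lists were chosen with earlier results of these data known. Some luminal markers are not reported here.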

Additional observations from a re-analysis of the deposited data

Results flagged for a closer look

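The responses of metallothionein genes that differed between conditions by a test of the difference itself were the following. MT1X departed from the sum of the single agents by -0.26 (SE 0.058) with abiraterone and olaparib and by -0.26 (SE 0.056) with enzalutamide and talazoparib on the log2 scale, with edgeR adjusted p of 0.0020 and 0.0014.

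The olaparib effect at day 5 differed from that at day 1 by -0.37 for MT2A and -0.23 for MT1X at 1 µM, and by -1.26 for MT2A, -0.51 for MT1X and -0.96 for MT1F at 5 µM (edgeR, adjusted p = 8.9e-05, 0.00081, 4.5e-14, 1.1e-09 and 0.00052). MT2A itself was lower at day 5 than at day 1 in DMSO, and each day was compared with its own DMSO libraries.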

How the results depend on the processing

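Of the log2 fold changes of MT2A, MT1X and MT1F, the alternatives other than leaving out a library kept direction and side of the threshold in 451 values, lost the call in 4, gained one in 2 and reversed 1. Total-count scaling reversed MT2A with abiraterone and olaparib against DMSO (0.025) and cut the called members from 2 to 1 when an ARPi was added to olaparib or to talazoparib, and from 1 to 0 for olaparib at 1 µM at day 1 (MT1X, adjusted p = 0.14). It moved the median of all genes from -0.022 to -0.15 for the 5 µM effect at day 5 minus day 1. The log2 ratio of the summed level to DMSO moved under total-count scaling to 0.42 with abiraterone, 0.53 with enzalutamide, -0.45 with talazoparib, -0.25 with abiraterone and olaparib, -0.00918 with enzalutamide and talazoparib and -1.14 with olaparib at 5 µM at day 5. Under RLE scaling it moved to -0.288 with abiraterone and olaparib. A shift counted as a move when it exceeded the SD of the log2 level over the 3 libraries of the treated group. That SD was small with abiraterone and olaparib (70.4 ± 0.18 CPM), so a small shift counted there. With no filter on low counts MT1F lost its call with abiraterone (adjusted p = 0.056), and called members for olaparib at 5 µM at day 1 rose from 1 to 2 (MT2A -0.085, adjusted p = 0.044). The cause was not tested.

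Replicate numbers did not pair the samples: deviations of same-numbered libraries correlated between -0.069 and 0.064 in the panel and between -0.13 and 0.12 in the time course, and 3 of 21 and 7 of 18 libraries correlated best with their own number. A replicate block raised the called members for olaparib at 5 µM at day 1 from 1 to 2 (MT2A -0.0943, adjusted p = 0.037) and changed no other count of members past the threshold by over 1.5 times.

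Leaving out 1 library at a time, values ranged for MT1F with olaparib at 1 µM from -0.077 to 0.14 at day 1 and -0.19 to 0.011 at day 5, for MT1F from 1 to 5 µM at day 1 from -0.048 to 0.145, for MT1X in DMSO at day 5 against day 1 from -0.0066 to 0.037, for MT2A with abiraterone and olaparib against DMSO from -0.072 to 0.072, and for MT2A between experiments from -0.16 to 0.0068. Called members ranged from 1 to 2 when an ARPi was added to olaparib or to talazoparib, for the abiraterone and olaparib departure, for olaparib at 5 µM at day 1 and for the dose step at day 1 (without olaparib 5 µM replicate 3, MT2A -0.11, adjusted p = 0.049), and from 0 to 0 for olaparib at 1 µM at day 1. MT1F had 37 to 144 counts per library, and the part of depth in its calls was not tested.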
